A study of Mus musculus with 17 samples.

Results

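The genes for 4 secreted cytokines of innate immunity, tumour necrosis factor (Tnf), interleukin 6 (Il6), interleukin 10 (Il10) and interferon beta (Ifnb1), were followed together with those for oncostatin M (Osm) and leukemia inhibitory factor (Lif), which belong to the interleukin 6 family, and for the TNF receptors TNFR1 (Tnfrsf1a) and TNFR2 (Tnfrsf1b). These 8 genes were taken by name from count tables of 54532 genes, and all 8 were present in them. RNA was sequenced from 17 mouse samples to ask how versikine, a fragment that proteases release from the matrix proteoglycan versican, shapes the immune cells of tumours. In tumor CD45 samples, which hold white blood cells, 3 samples came from tumours labelled Vkine (versikine) and 3 from tumours labelled EV, a common abbreviation of empty vector. MutuDC samples comprised 3 of Vkine with LPS, 3 of EV with LPS, 3 of Vkine without LPS and 2 of EV without LPS, where LPS is bacterial lipopolysaccharide, an activator of dendritic cells. The CD45 samples carry the sample type tumor but the source field bone marrow, and nothing in the sources used here tells the tumour model, the strain, the age, how Vkine reached the cells, or how much LPS was used and for how long. MutuDC is a line of conventional dendritic cells from mouse spleen, immortalised by a viral oncogene under a dendritic cell promoter, so those samples describe 1 cell line. The labels do not say that replicates are separate animals or cultures, nor whether the EV samples titled R1 and R1L1 share an animal, and p-values measure only the spread between these samples.

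TNF is released mainly by activated macrophages, monocytes and dendritic cells. It acts through TNFR1, present on most cells and able to trigger cell death, and through TNFR2, found mainly on immune cells. Interleukin 6, oncostatin M and LIF signal through a receptor chain they share, gp130, and the kinases and STAT proteins below it. Interleukin 10 restrains macrophages and dendritic cells through STAT3, and interferon beta switches on antiviral genes through the type I interferon receptor. In dendritic cells, Toll-like receptor 4 senses LPS and drives these cytokine genes through NF-kB, AP-1 and IRF factors, and their mRNAs are short-lived because proteins such as tristetraprolin bind AU-rich elements in the 3' UTR.

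The promoters of Tnf, Il6, Lif and Ifnb1 are shown because these are the cytokine genes whose levels the results turn on. Each window runs from 250 bases before the annotated start of transcription to 50 after it, is taken from RefSeq on GRCm38.p6 and is written 5' to 3' along the gene's strand. Capitals mark matches to an NF-kB consensus, the AP-1 motif (TGANTCA) or a TATA box (TATAAA), searched on both strands. The windows lie at chr17:35201958-35202257 (minus strand), chr5:30012864-30013163 (plus strand), chr11:4257318-4257617 (plus strand) and chr4:88522745-88523044 (minus strand), in the order printed.
Tnf promoter: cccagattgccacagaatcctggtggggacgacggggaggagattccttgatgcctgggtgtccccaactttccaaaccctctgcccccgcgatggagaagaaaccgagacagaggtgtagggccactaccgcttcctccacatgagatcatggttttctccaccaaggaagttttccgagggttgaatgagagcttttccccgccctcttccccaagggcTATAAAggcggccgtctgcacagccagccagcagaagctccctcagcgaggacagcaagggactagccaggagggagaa
Il6 promoter: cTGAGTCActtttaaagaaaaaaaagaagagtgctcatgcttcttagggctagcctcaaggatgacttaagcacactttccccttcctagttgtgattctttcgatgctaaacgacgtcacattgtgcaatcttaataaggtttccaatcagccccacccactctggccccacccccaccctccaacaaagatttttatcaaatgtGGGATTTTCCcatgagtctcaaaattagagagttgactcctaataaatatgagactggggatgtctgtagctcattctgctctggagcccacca
Lif promoter: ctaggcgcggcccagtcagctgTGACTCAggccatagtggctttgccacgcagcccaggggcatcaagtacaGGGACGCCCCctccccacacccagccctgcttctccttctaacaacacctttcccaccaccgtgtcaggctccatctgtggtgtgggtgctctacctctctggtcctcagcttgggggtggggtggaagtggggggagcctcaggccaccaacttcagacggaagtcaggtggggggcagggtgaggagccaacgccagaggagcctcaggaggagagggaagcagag
Ifnb1 promoter: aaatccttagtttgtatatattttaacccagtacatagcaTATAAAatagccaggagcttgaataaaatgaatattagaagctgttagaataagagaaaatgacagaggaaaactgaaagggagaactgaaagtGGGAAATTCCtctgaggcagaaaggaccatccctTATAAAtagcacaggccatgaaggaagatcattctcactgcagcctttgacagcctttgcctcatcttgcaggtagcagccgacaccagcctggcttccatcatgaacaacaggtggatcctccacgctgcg

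RefSeq windows were matched for 6 of the 8 genes, the other two being Il10 and Osm. The NF-kB letters were found in Il6 at 44 bases before the start, in Ifnb1 at 116 and in Lif at 178, where the match reads on both strands. Of 32851 mouse promoter windows of the same length, 8.46% held such a match. The AP-1 letters stood in Il6 and Lif (7.81% of windows), and the TATA letters in Tnf at 29 bases before the start and at 2 places in Ifnb1 (13.6% of windows). The GAS-type motif (TTCNNNGAA), to which STAT dimers are known to bind, was matched in both receptor promoters, Tnfrsf1a and Tnfrsf1b (8.3% of windows). Tnfrsf1b also held a match to an IRF-type motif (3.44% of windows), and the CRE motif (TGACGTCA, 1.79% of windows) was in none of the 6. No pair of matches in these windows overlapped apart from the Lif site read on both strands. Only matches to the fixed letters and spacing of each motif were counted. A window without a match may therefore still hold a site that is spelled or spaced otherwise. This applies to NF-kB in the Tnf window and to the IRF-type motif in the Ifnb1 window, where such sites were not tested.

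The AU-rich stretches of the same 4 transcripts are shown because they mark which of these mRNAs carry many copies of the core element ATTTA, in capitals. Each is the first 30-base stretch with the most copies, overlapping ones included, in the longest 3' UTR of the gene in the GENCODE annotation on GRCm38.
Tnf 3' UTR site: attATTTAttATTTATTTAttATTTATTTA
Il6 3' UTR site: tttaattatttttaATTTAttgataATTTA
Lif 3' UTR site: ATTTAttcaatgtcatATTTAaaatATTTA
Ifnb1 3' UTR site: aaaacagagtttttattaATTTAtaATTTA

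Counted over the whole 3' UTR, ATTTA occurred 8 times in Tnf (764 bases), 10 times in Il6 (1668 bases), 6 times in Il10 (706 bases), 4 times in Ifnb1 (201 bases), 6 times in Osm (1017 bases) and 7 times in Lif (3180 bases). The receptors held fewer, with 0 in Tnfrsf1a (490 bases) and 2 in Tnfrsf1b (2324 bases). Among genes whose 3' UTR was within 1.25 times that length either way, 0.303% had as many copies as Tnf, 0.907% as many as Ifnb1, 2.24% as many as Il10, 2.61% as many as Il6 and 5.48% as many as Osm, against 39.6% for Lif and 82.1% for Tnfrsf1b. The nonamer TTATTTATT occurred 5 times in Tnf, 2 times in Lif and in none of the other 6 genes, while 7.64% of 20883 genes held at least 1.

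Libraries held 13814620 to 18125269 counts in the CD45 set and 15938185 to 21263321 in MutuDC. In the CD45 set, Vkine sample 1 stood apart, where mitochondrial genes took 10.6% of counts, while Vkine samples 2 and 3 had 2.47% and 2.75% and EV samples 4.32% to 5.56%, and with an erythroid marker sum of 313.9 CPM against 8.47 to 28.6 CPM in the other 5 samples. EV sample 2 had the lowest level of Tnf, Il6, Il10, Ifnb1, Osm, Lif and Tnfrsf1b of the 6 samples. Ptprc, which encodes CD45, was at 685.1 to 930.2 CPM in Vkine samples and 585.3 to 777.3 CPM in EV samples. In MutuDC the dendritic cell genes Irf8, Itgax, Batf3, Xcr1 and Clec9a were present in all 4 groups. Itgae, also on the list of 13 dendritic cell genes, was low, with group means of 0.908 to 1.33 CPM. The T cell genes Cd3d, Cd3e, Cd3g, Trac and Trbc2 and the neutrophil genes S100a8, S100a9 and Ly6g were at 0. The sum of 11 T cell genes, which include Cd8a of the dendritic cell list, still ran from 57.5 CPM in Vkine to 138.5 CPM in Vkine+LPS. The summed level of 12 neutrophil genes, 6 of them at 0, was still 2156 to 2246 CPM in Vkine+LPS, 2022 to 2053 in EV+LPS, 3176 to 3608 in Vkine and 2010 to 2051 in EV, and that of 10 macrophage genes, of which Cx3cr1 was at 0, was 237.9 to 264.7, 104.6 to 120.4, 78.8 to 89.3 and 163.5 to 173.3 CPM in the same order of groups. The share of mitochondrial counts in MutuDC was 0.936% to 1.03% with Vkine and LPS, 1.73% to 1.96% with EV and LPS, 1.72% to 1.86% with Vkine and 1.36% to 1.41% with EV, and the part of these measures in the results was not tested.

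In tumor CD45 cells, none of the 8 genes was called different between Vkine and EV (edgeR quasi-likelihood test; a call needs a p under 0.05 after Benjamini-Hochberg adjustment across every tested gene). All 8 fold changes were positive, and the largest were those of Ifnb1, Il10 and Lif. Ifnb1, Il10 and Osm were higher in every Vkine sample than in every EV sample. Levels are CPM, library-size-normalised counts after TMM scaling, unless stated otherwise. In such bulk samples, more cells of a type and more RNA per cell cannot be told apart.

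Tnf (ENSMUSG00000024401, chr17:35199381-35202007, minus strand) had 394.7, 1284.8 and 953.8 CPM in Vkine samples, against 557.5, 325.1 and 517.7 CPM in EV samples. Vkine samples 2 and 3 lay above all EV samples and Vkine sample 1 lay among them, so the groups overlapped. The log2 fold change of Tnf was 0.91 ± 0.41 (SE, adjusted p = 0.43), and leaving out any 1 sample gave 0.529 (without Vkine sample 2) to 1.254 (without Vkine sample 1). Il6 (ENSMUSG00000025746, chr5:30013114-30019981, plus strand) had 32.2, 82.7 and 76.0 CPM in Vkine samples, against 39.5, 28.2 and 48.6 CPM in EV samples. The groups overlapped in the same way through Vkine sample 1, and its log2 fold change was 0.72 ± 0.35 (adjusted p = 0.47).

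Il10 (ENSMUSG00000016529, chr1:131019845-131024974, plus strand) had 32.5, 143.9 and 88.4 CPM in Vkine samples, against 21.4, 14.1 and 24.5 CPM in EV samples. Every Vkine sample was above every EV sample, although Vkine sample 1 was close to the highest of them. The mean was 88.3 ± 55.7 CPM in Vkine and 20.04 ± 5.35 CPM in EV (SD, n = 3 each), and the log2 fold change was 2.14 ± 0.54 (SE, adjusted p = 0.29). Ifnb1 (ENSMUSG00000048806, chr4:88522025-88522774, minus strand) had 14.3, 5.80 and 10.9 CPM in Vkine samples, against 2.44, 0.735 and 1.61 CPM in EV samples, from 194, 100 and 176 counts in Vkine and 43, 13 and 29 counts in EV. The lowest Vkine sample was above the highest EV sample. Its mean was 10.3 ± 4.3 CPM in Vkine and 1.6 ± 0.855 CPM in EV, and its log2 fold change of 2.69 ± 0.49 was the largest of the 8 (adjusted p = 0.18).

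Osm (ENSMUSG00000058755, chr11:4236420-4241026, plus strand) was high in both groups, with 797.8, 747.2 and 1099 CPM in Vkine samples, against 732.5, 407.5 and 736.4 CPM in EV samples. The groups did not overlap, but 747.2 CPM in Vkine sample 2 and 736.4 CPM in EV sample 3 were close, and the log2 fold change was 0.50 ± 0.25 (adjusted p = 0.47). Without EV sample 2 it was 0.26, and without Vkine sample 3 it was 0.31. Lif (ENSMUSG00000034394, chr11:4257557-4272514, plus strand), which begins 16531 bases beyond the end of Osm on the same strand, had 59.3, 119.0 and 192.2 CPM in Vkine samples, against 87.3, 19.3 and 47.8 CPM in EV samples. Lif overlapped between the groups and varied within each of them, with a log2 fold change of 1.26 ± 0.63 (adjusted p = 0.49). Leaving out single samples moved it between 0.79 (without Vkine sample 3) and 1.88 (without EV sample 1).

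The receptors differed from each other in their spread. Tnfrsf1a (ENSMUSG00000030341, chr6:125349362-125362484, plus strand) had 235.6, 314.5 and 309.4 CPM in Vkine samples, against 248.6, 269.8 and 279.1 CPM in EV samples, with a log2 fold change of 0.11 ± 0.16 (adjusted p = 0.83). Tnfrsf1b (ENSMUSG00000028599, chr4:145213463-145246870, minus strand) had 348.9, 828.2 and 763.7 CPM in Vkine samples, against 453.6, 312.6 and 382.2 CPM in EV samples, with a log2 fold change of 0.76 ± 0.30 (adjusted p = 0.37). Both receptors overlapped between the groups, each because Vkine sample 1 was among or below the EV samples.

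**Figure D1:**
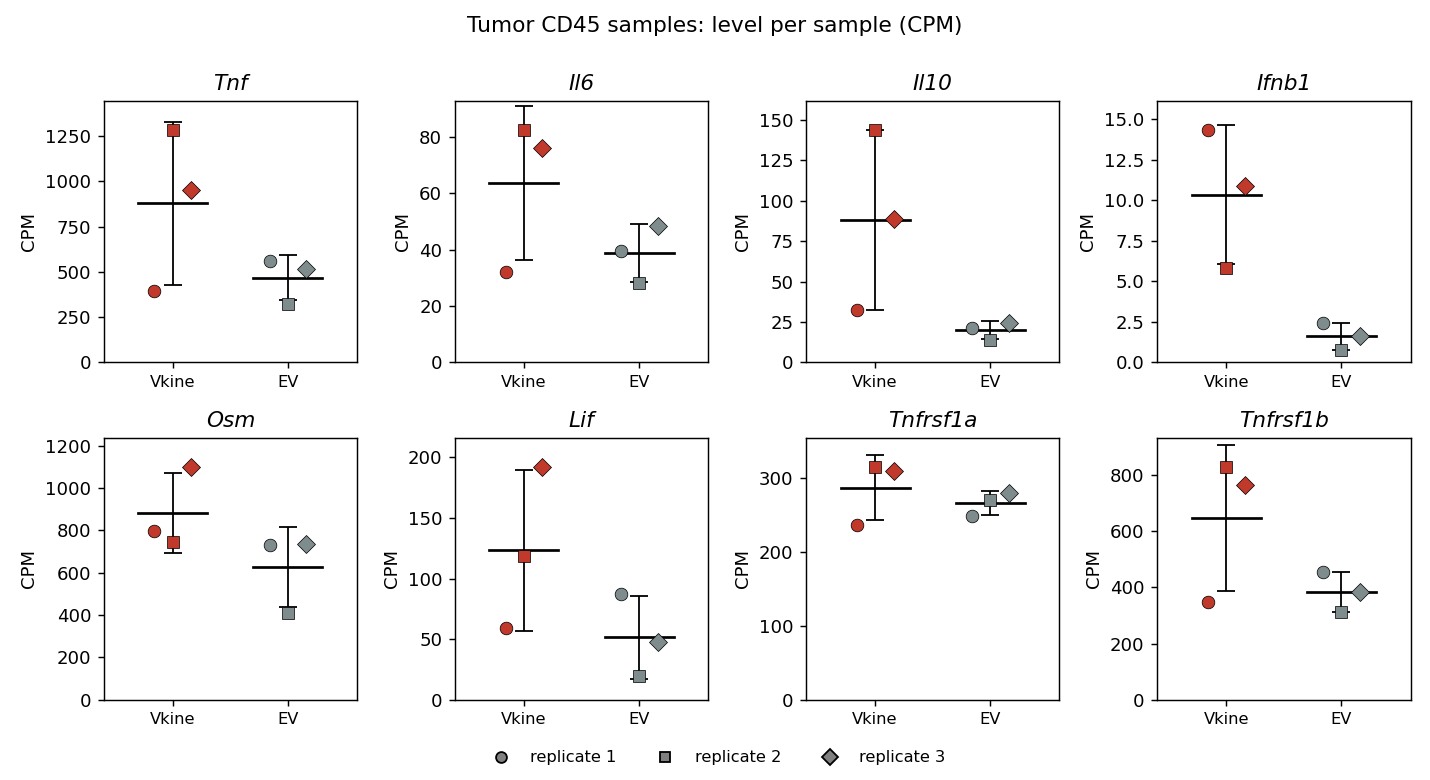
Level of the 8 genes in each tumor CD45 sample, in CPM on linear axes that start at 0, with Vkine left of EV; symbols mark the replicate, and lines and bars give the mean and SD of 3 samples. Ifnb1, Il10 and Osm do not overlap between the groups, and Vkine sample 1 lies near or below EV samples for Tnf, Il6, Lif and Tnfrsf1b.

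Against 0 of 8 genes called, 0.0286% of 14006 tested genes were called in either direction, 0.0214% higher and 0.00714% lower, so the background was itself close to 0. Of the 8 genes, 3 had an unadjusted p under 0.05 (Ifnb1, Il10 and Tnfrsf1b). The 3 genes without overlap stand against 9.21% of all tested genes that were higher in every Vkine sample and 9.42% that were lower in every one. The median log2 fold change was 0.83 over the 8 genes and -0.0020 over all tested genes. DESeq2 called 2 of the 8, Il10 (adjusted p = 0.038) and Ifnb1 (adjusted p = 6.49e-05), and limma on log2 FPKM called none. Without Vkine sample 1, Il10 was called, its log2 fold change being 2.53 (adjusted p = 0.033), and Tnf was at 1.254 (adjusted p = 0.069).

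Marker levels of several cell types moved with the groups. The summed level of 12 neutrophil genes was 3632 to 5660 CPM in Vkine samples and 453.7 to 2143 CPM in EV samples, and that of 11 T cell genes was 37.3 to 64.6 CPM in Vkine and 13.8 to 24.3 CPM in EV, both without overlap. The sum of 13 conventional dendritic cell genes was 2359 to 3922 CPM in Vkine and 1441 to 2468 CPM in EV, and that of 10 macrophage genes 8305 to 11836 CPM in Vkine and 10971 to 13592 CPM in EV. Markers of other tissue were also read. The sum of 9 fibroblast genes was 165.5 to 271.8 CPM in Vkine and 107 to 204.4 CPM in EV. For 6 endothelial genes it was 112.5 to 226.8 CPM in Vkine and 57.2 to 191 CPM in EV, and both sums overlapped. EV sample 2, the lowest for 7 of the 8 genes, was also the lowest in the neutrophil, T cell and dendritic cell sums. The part of these cell types in the cytokine levels was not tested.

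In MutuDC without LPS, Tnf, Il6, Lif and Tnfrsf1b rose and Tnfrsf1a fell in Vkine cells relative to EV cells. Tnf was 8.12-fold higher, Il6 3.47-fold and Lif 3.28-fold, while Tnfrsf1b was 1.28-fold higher and Tnfrsf1a 1.23-fold lower. Il10 and Ifnb1 stayed at a few counts per library and Osm was at 0, so 5 of the 8 genes passed the filter on low counts and were tested. Called genes numbered 4 higher and 1 lower, where the background was 16.9% of 13357 tested genes called higher and 18.3% called lower, 35.2% together. All 5 were without overlap between the groups, as were 32.1% of tested genes on the higher and 32.3% on the lower side.

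Tnf had 14.4, 13.6 and 12.9 CPM in Vkine samples, against 2.12 and 1.18 CPM in EV samples. All Vkine samples were far above both EV samples, which held 41 and 20 counts. The mean was 13.6 ± 0.753 CPM in Vkine (SD, n = 3) and 1.65 ± 0.669 CPM in EV (SD, n = 2), and the log2 fold change was 3.02 ± 0.19 (SE, adjusted p = 9.85e-09). Leaving out any 1 sample gave 2.70 to 3.54 for Tnf, and the lowest of 14 alternatives gave 2.33. Il6 had 1.11, 1.09 and 1.31 CPM in Vkine samples, against 0.259 and 0.413 CPM in EV samples, from 22, 21 and 22 counts in Vkine and 5 and 7 counts in EV. Its groups did not overlap, at a low level in both, and its log2 fold change was 1.79 ± 0.42 (adjusted p = 0.0034). Without EV sample 1 the Il6 call was lost (1.496, adjusted p = 0.059).

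Lif had 22.6, 24.8 and 21.9 CPM in Vkine samples, against 7.20 and 6.90 CPM in EV samples. The 2 groups were tight and apart, and the log2 fold change was 1.71 ± 0.14 (adjusted p = 1.99e-07). Tnfrsf1b had 43.9, 48.8 and 43.3 CPM in Vkine samples, against 36.4 and 34.6 CPM in EV samples (log2 fold change 0.35 ± 0.08, adjusted p = 0.0035). Tnfrsf1a went the other way, with 108.4, 102.1 and 91.0 CPM in Vkine samples, against 120.2 and 126.7 CPM in EV samples (log2 fold change -0.30 ± 0.08, adjusted p = 0.012). Every Vkine sample was above both EV samples for Tnfrsf1b and below both for Tnfrsf1a. The call of Tnfrsf1a was lost without EV sample 2 (-0.24, adjusted p = 0.13) or Vkine sample 3 (-0.23, adjusted p = 0.056).

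LPS without Vkine raised Tnf and Il6 and lowered Tnfrsf1a in EV cells, and no change of Lif or Tnfrsf1b was called. This made 2 genes higher and 1 lower of 5, with backgrounds of 17.2% called higher and 17.6% called lower (34.8% together). Without overlap were 3 genes that were higher and 1 that was lower, against 27.1% and 27.3% of tested genes. Tnf had 5.90, 5.001 and 6.55 CPM in EV+LPS samples, above the EV values given before (log2 fold change 1.79 ± 0.21, adjusted p = 9.63e-06). Il6 had 1.38, 1.41 and 2.35 CPM in EV+LPS samples, from 25, 24 and 42 counts, also without overlap (2.35 ± 0.40, adjusted p = 0.00029). Il6 was thus 5.09-fold higher with LPS and Tnf 3.46-fold.

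Tnfrsf1a had 100.4, 93.1 and 108.6 CPM in EV+LPS samples, below both EV samples (log2 fold change -0.29 ± 0.08, adjusted p = 0.013). That call was lost without EV sample 2 (-0.25, adjusted p = 0.12) and in a fit of the compared groups alone (adjusted p = 0.052). Lif had 8.33, 9.59 and 6.998 CPM in EV+LPS samples, which overlapped EV (0.23 ± 0.15, adjusted p = 0.25). Tnfrsf1b had 39.6, 38.8 and 38.3 CPM in EV+LPS samples, above both EV samples by a small step that was not called (0.13 ± 0.08, adjusted p = 0.23).

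LPS given to Vkine cells raised Tnf, Il6, Tnfrsf1a and Tnfrsf1b and lowered Lif. All 5 tested genes were called, 4 higher and 1 lower, and the background was 27.6% of tested genes called higher and 24.3% called lower (51.9% together). The same 5 genes did not overlap between the groups, as did 33.8% of tested genes that were higher and 30.3% that were lower in every Vkine+LPS sample. Tnf had 19.0, 20.03 and 21.4 CPM in Vkine+LPS samples, all above the Vkine samples without LPS (log2 fold change 0.56 ± 0.12, adjusted p = 0.0010). Il6 had 2.63, 2.58 and 2.96 CPM in Vkine+LPS samples, from 54, 45 and 54 counts, all above Vkine (1.22 ± 0.26, adjusted p = 0.0010). In Vkine+LPS cells both genes had the highest mean of the 4 groups.

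Lif had 9.22, 7.15 and 8.22 CPM in Vkine+LPS samples, all far below the Vkine samples without LPS, and fell by 1.49 on the log2 scale (SE 0.12, adjusted p = 6.42e-08). Its mean was 8.2 ± 1.03 CPM in Vkine+LPS and 23.1 ± 1.52 CPM in Vkine (SD, n = 3 each). Tnfrsf1a had 132.9, 143.3 and 133.5 CPM in Vkine+LPS samples and rose above every Vkine sample (0.44 ± 0.08, adjusted p = 0.00016). Tnfrsf1b had 52.2, 56.5 and 53.3 CPM in Vkine+LPS samples, also above every Vkine sample (0.25 ± 0.07, adjusted p = 0.0083), a call that limma on log2 FPKM did not make (0.13, adjusted p = 0.12).

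With LPS in both arms, Tnf, Il6, Tnfrsf1a and Tnfrsf1b were higher in Vkine+LPS than in EV+LPS cells, and Lif was level. The 4 genes called higher and 0 called lower compare with 22.8% and 19.2% of tested genes (42% together). Those 4 did not overlap between the groups, against 26.3% of tested genes on the higher and 22% on the lower side. The log2 fold change was 1.79 ± 0.13 for Tnf (adjusted p = 6.42e-08), and its groups were far apart, with the lowest Vkine+LPS sample at 19.0 CPM and the highest EV+LPS sample at 6.55 CPM. Tnfrsf1a (0.44 ± 0.08, adjusted p = 0.00027) and Tnfrsf1b (0.47 ± 0.07, adjusted p = 0.00010) were higher in every Vkine+LPS sample than in every EV+LPS sample. Lif differed by -0.01 ± 0.13 (adjusted p = 0.95), and its groups overlapped.

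Il6 was the least certain of these calls. Its log2 fold change between Vkine+LPS and EV+LPS was 0.66 ± 0.25 (adjusted p = 0.041), and 2.58 CPM in the lowest Vkine+LPS sample stood near 2.35 CPM in EV+LPS sample 3. The call was kept in 6 of 15 alternatives, with adjusted p between 0.0077 and 0.15, and of the 6 fits that each left out 1 sample only that without EV+LPS sample 3 kept it.

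**Figure D2:**
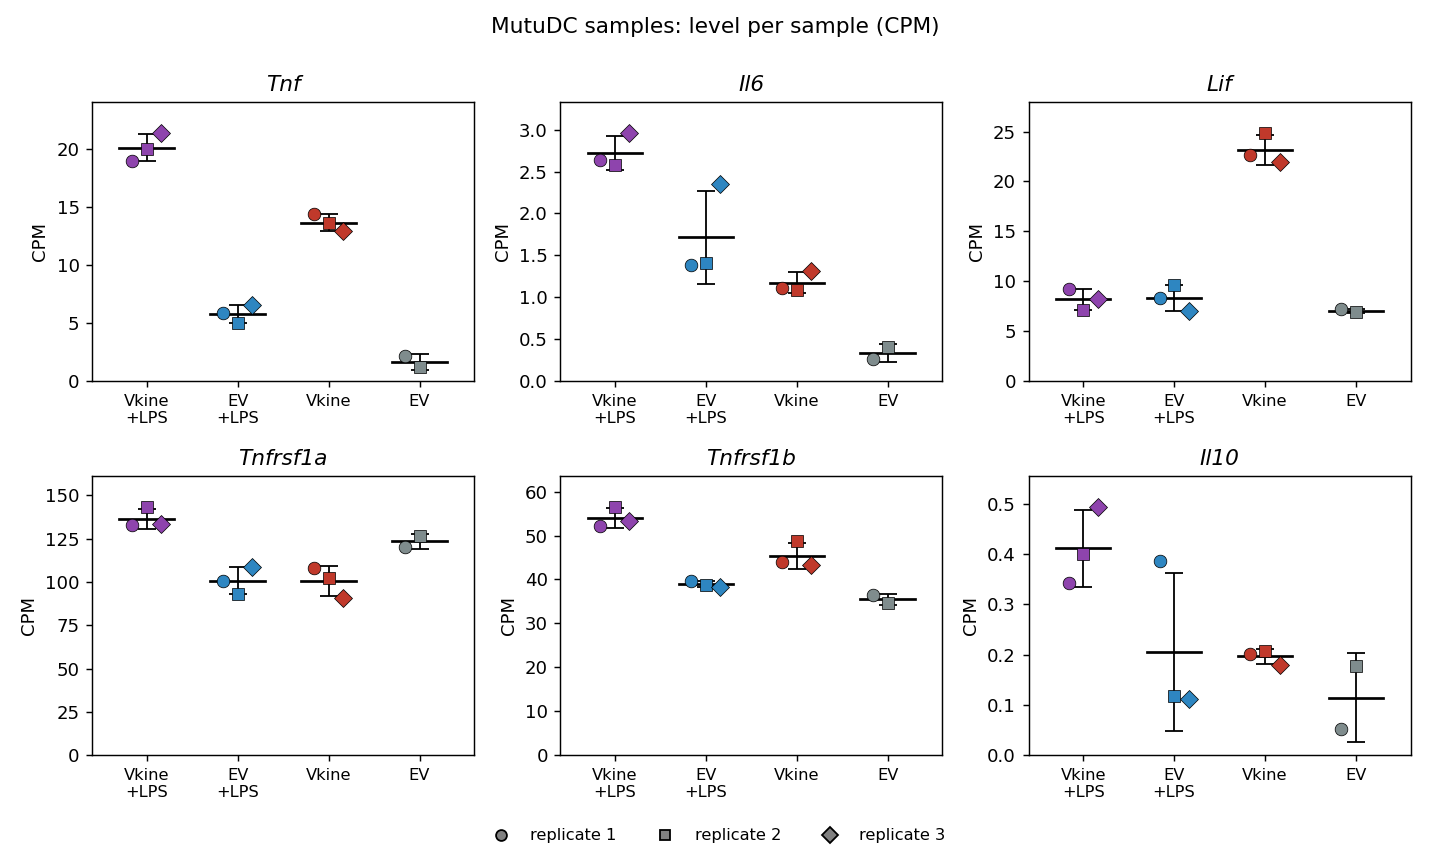
Level of 6 of the genes in each MutuDC sample, in CPM on linear axes that start at 0, for Vkine+LPS, EV+LPS, Vkine and EV; symbols mark the replicate, and lines and bars give the mean and SD (n = 3, and n = 2 for EV). Tnf and Il6 are highest in Vkine+LPS, Lif is high in Vkine alone, and Il10 stays under 0.5 CPM.

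The LPS effect itself differed between Vkine and EV cells for Tnf, Lif and Tnfrsf1a. The interaction term, the log2 LPS effect in Vkine cells minus that in EV cells, was -1.23 ± 0.25 for Tnf (adjusted p = 0.00063), -1.73 ± 0.19 for Lif (adjusted p = 2.95e-06) and 0.73 ± 0.11 for Tnfrsf1a (adjusted p = 6.5e-05). Tnf was higher with LPS in both arms but by a smaller factor in Vkine cells (1.47-fold) than in EV cells (3.46-fold). Its mean went from 1.65 to 5.82 CPM with LPS in EV cells and from 13.6 to 20.1 CPM in Vkine cells. The smaller LPS effect on Tnf in Vkine cells thus holds for the factor and not for the step in CPM. The factor in EV cells rests on 41 and 20 counts in the EV samples without LPS. Tnfrsf1a was higher with LPS in Vkine cells and lower with LPS in EV cells.

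No difference in the LPS effect was called for Il6 (-1.13 ± 0.50, adjusted p = 0.071) or Tnfrsf1b (0.12 ± 0.11, adjusted p = 0.39). The 1 gene with a higher and the 2 with a lower LPS effect in Vkine cells compare with 25.5% and 23.7% of tested genes (49.2% together). Of the 5 MutuDC comparisons several use the same control samples, so their values are not independent of each other.

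**Figure D3:**
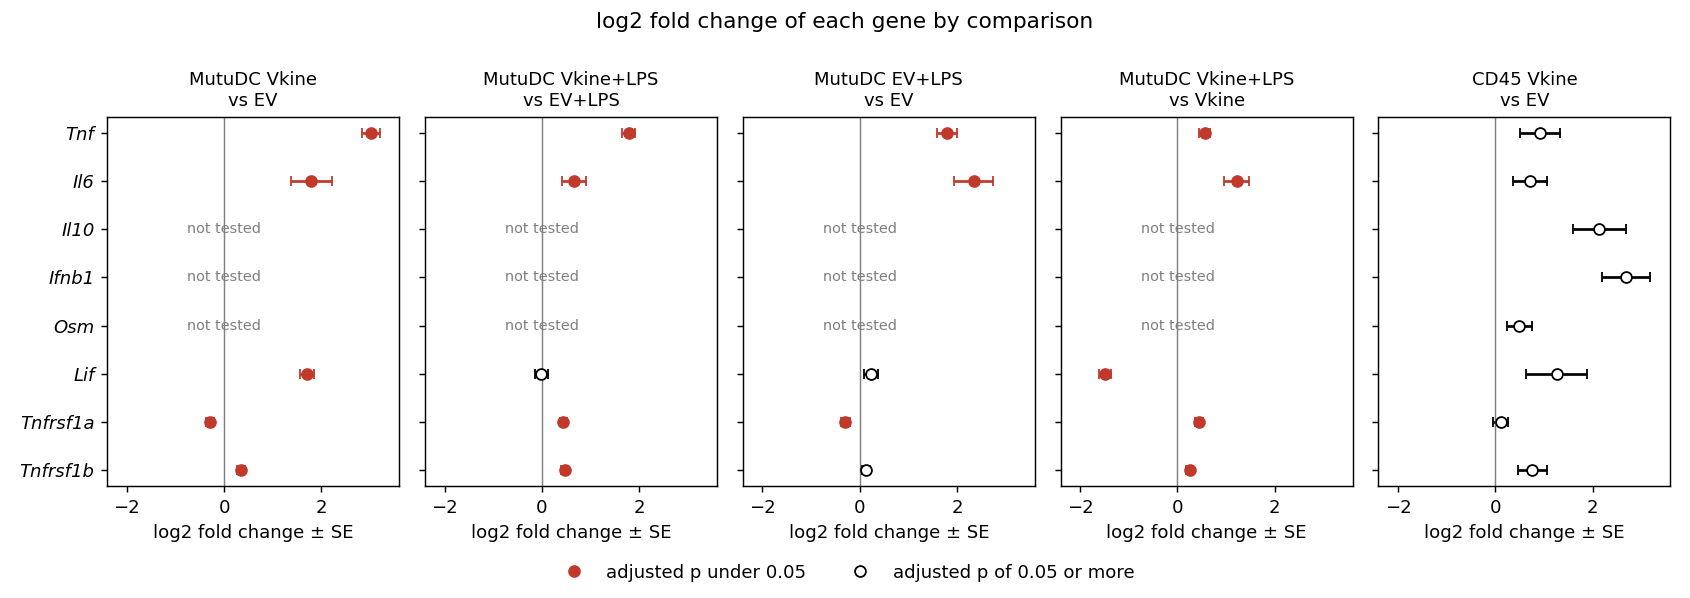
Log2 fold change with its SE for each tested gene in 4 MutuDC comparisons and the CD45 comparison; filled points have an adjusted p under 0.05. Tnf stands furthest from 0 in Vkine against EV in MutuDC (3.02), Lif is below 0 by most in Vkine+LPS against Vkine (-1.49), and no CD45 point is filled.

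The remaining cytokines did not pass the filter on low counts in MutuDC and were not tested there. Il10 had 7, 7 and 9 counts in Vkine+LPS samples, 7, 2 and 2 in EV+LPS, 4, 4 and 3 in Vkine and 1 and 3 in EV. Ifnb1 had 0, 2 and 4 counts in Vkine+LPS, 4, 0 and 0 in EV+LPS, 0, 4 and 2 in Vkine and 0 and 0 in EV. Il10 was higher in every Vkine+LPS sample than in every Vkine sample. It was also higher in every Vkine sample (0.179 to 0.208 CPM) than in both EV samples (0.0518 and 0.177 CPM), by a margin in which the nearest samples both had 3 counts, and its other comparisons overlapped. Ifnb1 had at most 4 counts per library and overlapped in every comparison. Osm had 0 counts in all 11 samples, which allows up to 0.146 to 0.179 CPM per library, counting error only. Lif, its neighbour on chromosome 11, was read in every one of them.

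By mean FPKM, the receptors and Tnf led in different orders in the 2 kinds of sample. FPKM were scaled by the authors separately in each table and are compared within a table only. The lengths behind them also differed between the tables for some genes. Tnfrsf1a had 248.6 CPM and 94.5 FPKM in CD45 EV sample 1, against 120.2 CPM and 139.7 FPKM in MutuDC EV sample 1. Tnf had 557.5 CPM and 335.1 FPKM, against 2.12 CPM and 1.34 FPKM, in the same samples. The part of these lengths in the 2 orders was not tested. In CD45 Vkine samples the order by mean FPKM was Tnf (531.2 ± 272.9), Osm (384.6 ± 83.5), Tnfrsf1b (168.1 ± 67.8), Tnfrsf1a (109.6 ± 17.1), Il10 (66.9 ± 42.2), Lif (28.2 ± 15.2), Il6 (26.0 ± 11.2) and Ifnb1 (13.7 ± 5.65; SD, n = 3). Only Osm and Tnfrsf1b were apart among neighbours in that order, and the ranges of all other neighbours overlapped. In CD45 EV samples the order was Tnf (280.3 ± 73.7), Osm (270.9 ± 80.8), Tnfrsf1a (101.05 ± 5.75), Tnfrsf1b (98.7 ± 18.001), Il6 (15.7 ± 4.06), Il10 (15.0 ± 3.94), Lif (11.6 ± 7.73) and Ifnb1 (2.1 ± 1.121; SD, n = 3). The steps clear of overlap there were those below Osm, below Tnfrsf1b and below Lif.

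In MutuDC, Tnfrsf1a was the highest of the 8 in every group, with 155.0 ± 5.7 FPKM in Vkine+LPS, 120.3 ± 7.07 in EV+LPS, 124.2 ± 10.2 in Vkine and 143.9 ± 5.95 in EV. Tnfrsf1b followed with 24.7 ± 0.865 FPKM in Vkine+LPS, 18.7 ± 0.539 in EV+LPS, 22.6 ± 1.47 in Vkine and 16.7 ± 0.521 in EV. Tnf came next at 12.4 ± 0.713 FPKM in Vkine+LPS, where it was apart from Lif at 2.87 ± 0.38. In Vkine cells, Tnf (9.18 ± 0.454 FPKM) and Lif (8.81 ± 0.558) overlapped, as did Tnf (3.78 ± 0.44) and Lif (3.07 ± 0.533) in EV+LPS cells. In EV cells Lif (2.53 ± 0.0674) was above Tnf (1.05 ± 0.42). These orders and overlaps rest on the lengths behind the MutuDC FPKM, and whether they hold with other lengths was not tested.

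**Figure D4:**
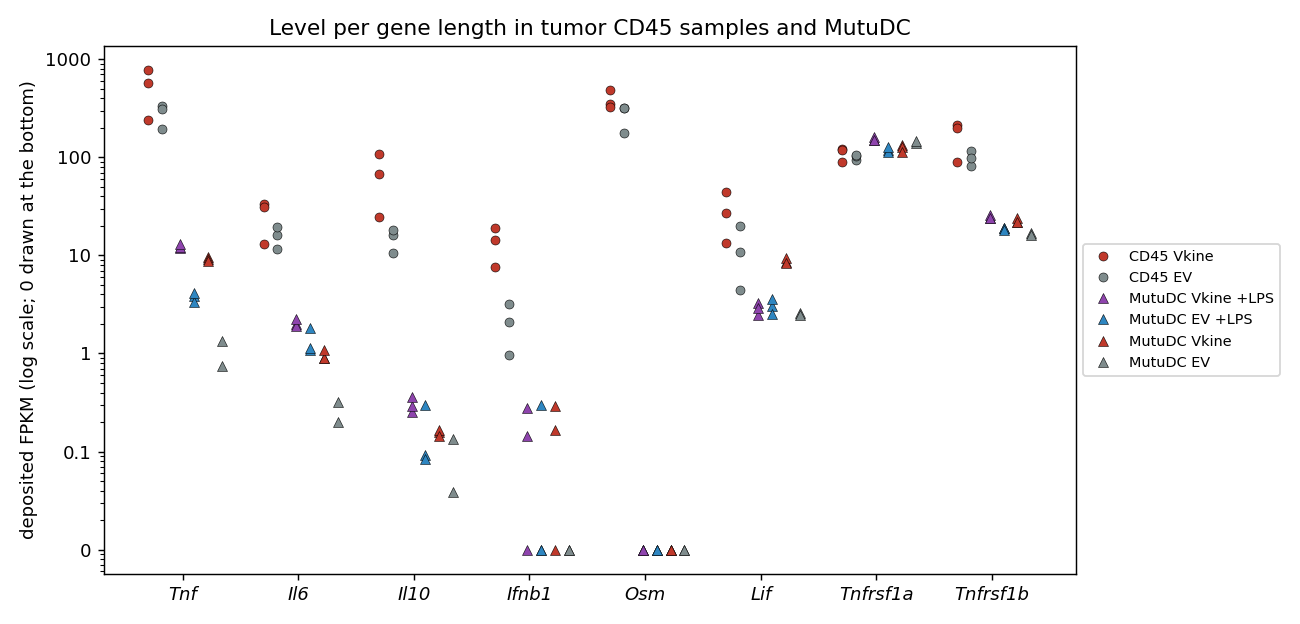
FPKM of the 8 genes on a log axis with every sample as a point, circles for CD45 and triangles for MutuDC, whose tables were scaled separately and with lengths that differed for some genes. Values of 0 are drawn at the tick marked 0. Tnf and Osm lead in CD45 cells and Tnfrsf1a in MutuDC, where Osm is at 0.

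Genes on the known pathways of these cytokines were counted from 7 lists, which were chosen with earlier results of these data known. None was called in any list in CD45 cells, so 0 of 30 TNF receptor signalling genes, 0 of 20 IL-6 family genes, 0 of 13 IL-10 axis genes, 0 of 25 genes of interferon beta induction and receptor, 0 of 18 genes of cytokine mRNA turnover, 0 of 26 other members of the TNF superfamily and 0 of 9 genome neighbours. The smallest p among them in CD45 cells belonged to Irf7, an interferon-inducible factor of interferon gene transcription, whose log2 fold change was 0.91 ± 0.18 (adjusted p = 0.20). Of the TNF superfamily genes, Tnfrsf21 had the smallest p there and was lower in every Vkine sample (-0.55 ± 0.14, adjusted p = 0.26). Tnfrsf18, which encodes the costimulatory receptor GITR, came next and was higher in every Vkine sample, at 1.97 ± 0.50 (adjusted p = 0.26). In MutuDC the background, as the share of all tested genes called, was 16.9% higher and 18.3% lower in Vkine against EV, 17.2% higher and 17.6% lower with LPS in EV cells, 27.6% higher and 24.3% lower with LPS in Vkine cells, 22.8% higher and 19.2% lower in Vkine+LPS against EV+LPS and 25.5% higher and 23.7% lower in the interaction. Shares of each list are set beside it, with the background in brackets.

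Below the TNF receptors, Vkine and LPS each raised the adaptor Traf1, the inhibitor of apoptosis Birc3 and the NF-kB brake Tnfaip3 (A20) in MutuDC. Of the 30 signalling genes 11 rose and 4 fell in Vkine against EV (median log2 fold change 0.12, against 0.01 over all genes), 12 rose and 3 fell with LPS in EV cells (median 0.13), and 12 rose and 6 fell with LPS in Vkine cells (median 0.16). With LPS in both arms 11 were higher and 5 lower in Vkine (median 0.17). Traf1 averaged 23.9 ± 1.24 CPM in Vkine+LPS, 5.46 ± 0.207 in EV+LPS, 3.91 ± 0.851 in Vkine and 0.916 ± 0.122 in EV. Tnfaip3 averaged 50.2 ± 0.736 CPM in Vkine+LPS, 25.5 ± 4.14 in EV+LPS, 19.4 ± 0.969 in Vkine and 5.98 ± 0.466 in EV. In both, as in Il6 and unlike Tnf, the mean of EV+LPS stood above that of Vkine. Tnip1, a partner of A20, rose with LPS in Vkine cells (2.21 ± 0.07, adjusted p = 1.5e-12), and its interaction was 1.41 ± 0.11 (adjusted p = 6.5e-08). In the interaction 9 of the 30 were higher and 10 lower. Of the 30 genes, the share called in either direction was 50% in Vkine against EV (35.2%), 50% with LPS in EV cells (34.8%), 60% with LPS in Vkine cells (51.9%), 53.3% in Vkine+LPS against EV+LPS (42%) and 63.3% in the interaction (49.2%).

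The genes that bear on cytokine mRNA turnover included Zfp36 and Dusp1, which like Lif had their highest mean in Vkine without LPS. Zfp36 encodes tristetraprolin, which binds ATTTA-rich sites such as those of Tnf. It averaged 47.5 ± 1.16 CPM in Vkine+LPS, 27.2 ± 2.99 in EV+LPS, 172.3 ± 20.1 in Vkine and 31.1 ± 2.16 in EV. Zfp36 rose in Vkine against EV (log2 fold change 2.47 ± 0.11, adjusted p = 1.4e-10) and fell with LPS in Vkine cells (-1.86 ± 0.09, adjusted p = 1.9e-10). Dusp1, a phosphatase that limits p38 signalling, also rose in Vkine (1.15 ± 0.12, adjusted p = 2.6e-06) and fell with LPS in Vkine cells (-0.96 ± 0.10, adjusted p = 1.5e-06). Other genes of the list moved otherwise. Zc3h12a rose with LPS in Vkine cells (1.75 ± 0.13, adjusted p = 2.2e-08). In Vkine+LPS against EV+LPS, Zc3h12a (1.53 ± 0.13, adjusted p = 2.1e-07) and Zfp36l1 (0.84 ± 0.08, adjusted p = 7.1e-07) were higher. Of the 18 turnover genes 6 rose and 3 fell in Vkine against EV (median -0.01), 4 rose and 7 fell with LPS in EV cells (median -0.17), 6 rose and 4 fell with LPS in Vkine cells (median -0.01), and 10 were higher and 3 lower in Vkine+LPS against EV+LPS (median 0.31). In the interaction 7 were higher and 3 lower. The called share of these 18 was 50% in Vkine against EV (35.2%), 61.1% with LPS in EV cells (34.8%), 55.6% with LPS in Vkine cells (51.9%), 72.2% in Vkine+LPS against EV+LPS (42%) and 55.6% in the interaction (49.2%). The 16.7% called lower in Vkine against EV was near the background for that direction.

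On the IL-6 family list, 16 of 21 genes were tested in MutuDC. In Vkine against EV 8 rose and 3 fell (median 0.22), with LPS in EV cells 5 rose and 4 fell (median -0.04), with LPS in Vkine cells 8 rose and 3 fell (median 0.37), and with LPS in both arms 6 were higher and 1 lower in Vkine (median 0.27). Socs3, the feedback inhibitor of gp130 signalling, rose in Vkine against EV (1.68 ± 0.32, adjusted p = 0.00069). Il6ra, the ligand-binding chain of the IL-6 receptor, fell in Vkine against EV (-0.72 ± 0.10, adjusted p = 2.8e-05) and rose with LPS in Vkine cells (0.61 ± 0.09, adjusted p = 2.7e-05). In the interaction 5 of the 16 were higher and 3 lower. Called in either direction were 68.8% in Vkine against EV (35.2%), 56.2% with LPS in EV cells (34.8%), 68.8% with LPS in Vkine cells (51.9%), 43.8% in Vkine+LPS against EV+LPS (42%) and 50% in the interaction (49.2%). The 18.8% called lower in Vkine against EV was near the background for that direction.

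On the IL-10 axis 13 of 17 genes were tested in MutuDC, where Il10 itself was near 0. In Vkine against EV 5 rose and 2 fell (median -0.06), with LPS in EV cells 3 rose and 1 fell (median 0.19), with LPS in Vkine cells 8 rose and 1 fell (median 0.74), and in Vkine+LPS against EV+LPS 7 were higher and 0 lower (median 0.61). Il1rn, the antagonist of the IL-1 receptor, averaged 7.01 ± 0.459 CPM in Vkine+LPS, 1.16 ± 0.469 in EV+LPS, 0.171 ± 0.165 in Vkine and 0.218 ± 0.0582 in EV, and rose with LPS in Vkine cells by 5.38 ± 0.38 on the log2 scale (adjusted p = 1.4e-08). The Vkine samples without LPS held 1 to 6 counts of it each, so the size of that fold change rests on counts near 0. Hmox1, heme oxygenase 1, fell in Vkine (-1.08 ± 0.08, adjusted p = 2.8e-08) and with LPS in EV cells (-1.75 ± 0.08, adjusted p = 1.6e-10), but was higher in Vkine+LPS than in EV+LPS (1.42 ± 0.07, adjusted p = 6.4e-10). Maf, a transcription factor of Il10, rose with LPS in Vkine cells (1.53 ± 0.08, adjusted p = 8.2e-10) and in EV cells (1.44 ± 0.10, adjusted p = 3.2e-08). In the interaction 5 were higher and 4 lower. As a share of the 13 this came to 53.8% in Vkine against EV (35.2%), 30.8% with LPS in EV cells (34.8%), 69.2% with LPS in Vkine cells (51.9%), 53.8% in Vkine+LPS against EV+LPS (42%) and 69.2% in the interaction (49.2%). Only with LPS in EV cells was the share of these genes below the background.

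Interferon beta was near 0 in MutuDC, yet genes that the interferon receptor is known to switch on were called. The list counted here is of its induction and receptor, so the counts do not measure how many such genes rose. Of 24 tested genes on it 10 rose and 5 fell in Vkine against EV (median 0.18), and 10 rose and 5 fell with LPS in EV cells (median 0.15). With LPS in Vkine cells 17 rose and 2 fell (median 0.41), and 11 were higher and 3 lower in Vkine+LPS against EV+LPS (median 0.16). Usp18, an interferon-induced inhibitor of the receptor, averaged 100.5 ± 3.66 CPM in Vkine+LPS, 64.4 ± 6.3 in EV+LPS, 37.2 ± 1.6 in Vkine and 11.9 ± 0.263 in EV. Ifih1, a sensor of viral RNA, rose in Vkine (1.90 ± 0.14, adjusted p = 8e-08), whereas Irf1 fell (-1.17 ± 0.08, adjusted p = 3.3e-08). Ikbke, a kinase upstream of interferon genes, rose with LPS in Vkine cells (4.33 ± 0.22, adjusted p = 2.7e-10). It was also higher with LPS in EV cells, at 1.62 ± 0.136 CPM in EV+LPS and 0.0259 CPM, from 1 count in all, in EV. In the interaction 10 were higher and 8 lower. Among the 24 genes the called share was 62.5% in Vkine against EV (35.2%), 62.5% with LPS in EV cells (34.8%), 79.2% with LPS in Vkine cells (51.9%), 58.3% in Vkine+LPS against EV+LPS (42%) and 75% in the interaction (49.2%).

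Among other ligands and receptors of the TNF superfamily, 17 of 32 were tested in MutuDC. In Vkine against EV 7 rose and 4 fell (median 0.38), with LPS in EV cells 6 rose and 1 fell (median 0.43), with LPS in Vkine cells 4 rose and 4 fell (median 0.07), and in Vkine+LPS against EV+LPS 6 were higher and 4 lower (median 0.02). Cd40, the receptor through which T cells license dendritic cells, averaged 203.5 ± 6.78 CPM in Vkine+LPS, 67.0 ± 5.75 in EV+LPS, 27.9 ± 1.06 in Vkine and 19.4 ± 0.885 in EV. Tnfsf9, the ligand of the costimulator 4-1BB, rose in Vkine (1.08 ± 0.13, adjusted p = 1.4e-05). Tnfsf13b, the B cell factor BAFF, fell with LPS in Vkine cells (-2.20 ± 0.31, adjusted p = 2.2e-05). In the interaction 3 were higher and 5 lower. For the 17 genes the called share was 64.7% in Vkine against EV (35.2%), 41.2% with LPS in EV cells (34.8%), 47.1% with LPS in Vkine cells (51.9%), 58.8% in Vkine+LPS against EV+LPS (42%) and 47.1% in the interaction (49.2%). With LPS in Vkine cells and in the interaction it was below the background.

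Around Tnf on chromosome 17, no other tested gene rose in Vkine against EV. Of 29 other genes within 100 kb 15 were tested, of which 0 rose and 7 fell, and their log2 fold changes ran from -0.80 (Prrc2a) to 0.64 (Mir8094, not called). Tnf stood at 3.02 in the same comparison. Lta and Ltb, the lymphotoxin genes beside Tnf, had means of at most 0.0373 CPM and 0.321 CPM in any MutuDC group. With LPS in EV cells 2 of these 15 genes rose and 2 fell, with LPS in Vkine cells 9 rose and 0 fell, and in Vkine+LPS against EV+LPS, where Tnf was also higher, 3 were higher and 1 lower. In the interaction 7 were higher and 1 lower. The called share of the 15 was 46.7% in Vkine against EV (35.2%), 26.7% with LPS in EV cells (34.8%), 60% with LPS in Vkine cells (51.9%), 26.7% in Vkine+LPS against EV+LPS (42%) and 53.3% in the interaction (49.2%). A list of named neighbours of the 8 genes was also counted, on which Vamp1 lies more than 100 kb from all of them. Of the 7 tested genes on that list, 0 rose and 2 fell in Vkine against EV (median 0.04). With LPS in EV cells 0 rose and 3 fell, and with LPS in Vkine cells 3 rose and 2 fell, Vamp1 among the latter. In Vkine+LPS against EV+LPS 4 were higher and 0 lower, and likewise in the interaction. With only 7 genes, the called share was 28.6% in Vkine against EV (35.2%), 42.9% with LPS in EV cells (34.8%), 71.4% with LPS in Vkine cells (51.9%), 57.1% in Vkine+LPS against EV+LPS (42%) and 57.1% in the interaction (49.2%).

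**Figure D5:**
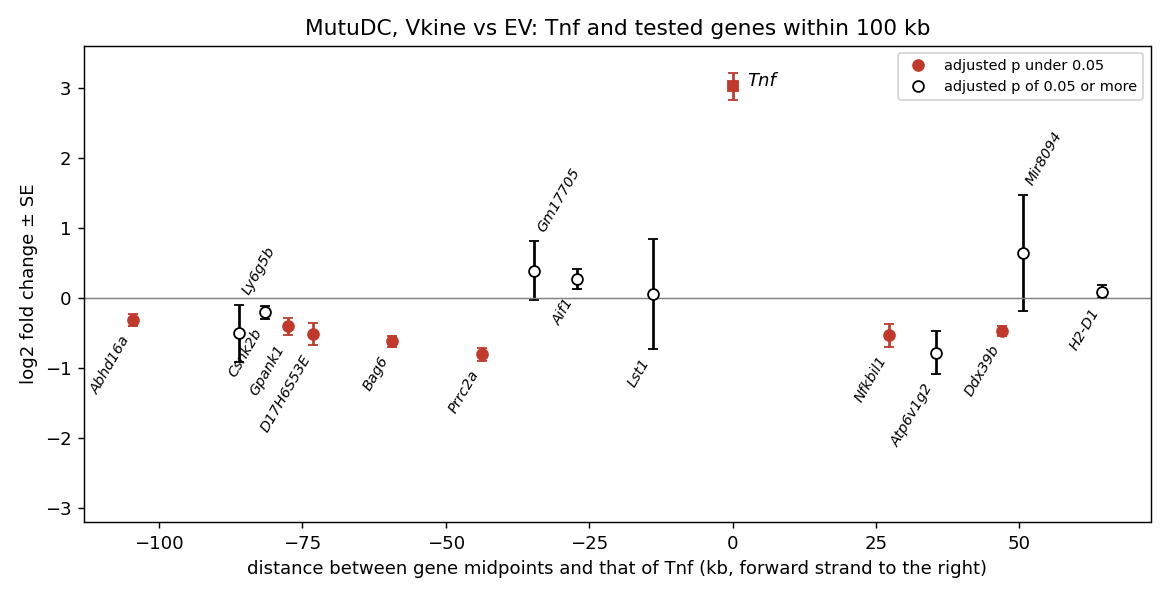
Log2 fold change with its SE in MutuDC Vkine against EV for Tnf and the 15 tested genes within 100 kb, by distance between gene midpoints in kb; filled points have an adjusted p under 0.05. Tnf stands alone at 3.02, and the 7 filled neighbours lie between -0.80 and -0.31.

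Across the 11 MutuDC samples, which share 1 cell line and fall into the 4 groups, the genes whose log2 CPM was most like each member were ranked by Pearson's r among 9392 or 9393 protein-coding genes of at least moderate level. Nearest to Tnf were C1qc, Ier3 and Btg1 (r = 0.98 each), and Ier3 averaged 12.6 ± 0.636 CPM in Vkine+LPS, 4.96 ± 0.127 in EV+LPS, 8.65 ± 0.89 in Vkine and 0.824 ± 0.0811 in EV. Nearest to Il6 were Gbp3 (r = 0.98), Parp9 and Hsd17b11 (r = 0.97 each). Nearest to Lif were Tiparp, Acly (r = 0.98 each) and Slc20a1 (r = 0.97), and Tiparp averaged 54.8 ± 2.84 CPM in Vkine+LPS, 64.9 ± 2.53 in EV+LPS, 138.3 ± 6.4 in Vkine and 53.2 ± 1.32 in EV. Nearest to Tnfrsf1a were Mrps5, Bcl7c and Ndufa3 (r = 0.99 each), and nearest to Tnfrsf1b were Ptpn6 (r = 0.98), Limd2 and Herpud1 (r = 0.96 each).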

How the data were processed

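RNA was sequenced from 6 tumor CD45 samples and 11 MutuDC samples. The counts deposited by the authors are raw whole numbers per Ensembl gene, and FPKM made by the authors, scaled by gene length and library total, were used for levels between genes and for 1 alternative test. Per the submitters' processing notes the tools were DESeq2 1.20.0, featureCounts 1.5.0-p3, STAR and fastp, the build GRCm38, and no version is named for STAR or fastp. Whether reads were counted by strand is not given either, so reads of overlapping genes may be shared.

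Samples were grouped by the labels. Each set was fitted apart with filterByExpr, TMM scaling and the robust quasi-likelihood test of edgeR 4.0.16 (R 4.3.3), with 1 model for the 4 MutuDC groups. A gene was called at p under 0.05 after Benjamini-Hochberg adjustment across all tested genes. The SE is the log2 fold change divided by the square root of F. Alternatives were DESeq2 size factors, no filter, a filter at 1 CPM, DESeq2 1.42.0, no robust estimation, limma-trend 3.58.1 on log2(FPKM + 1) or log2(FPKM + 0.1), a replicate block, a fit of only the groups compared, and dropping single samples. Log2 fold changes from FPKM understate changes of low genes. The edgeR test between groups was tried on simulated counts, whereas the interaction, the alternatives and the sequence searches were not.

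All 8 genes are named. From each of 7 pathway lists, counts are given with up to 3 called genes of smallest p per comparison (in CD45 cells up to 2), of which those described were picked after their values were seen. Genes most like a member were ranked on log2 CPM with a prior count of 2, at a mean of at least 2. The members and lists were chosen with earlier results of these data known. Figures were drawn with matplotlib 3.10.9.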

Additional observations from a re-analysis of the deposited data

Results flagged for a closer look

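The effect of LPS differed between Vkine and EV cells for 3 genes, each by the interaction term of the edgeR model over the 4 MutuDC groups. For Tnf the log2 LPS effect in Vkine cells minus that in EV cells was -1.23 (adjusted p = 0.00063). For Lif it was -1.73 (adjusted p = 2.95e-06), and for Tnfrsf1a it was 0.73 (adjusted p = 6.5e-05). All 3 were called in each of the 19 alternatives that were run.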

How the results depend on the processing

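In CD45 cells the number of the 8 genes called was 3 with no filter on low counts (Il6, Ifnb1 and Tnfrsf1b), 2 with DESeq2 (Il10 and Ifnb1), and 0 to 1 when single samples were left out, against 0 in the fit reported; over all genes the calls numbered 4 as reported, 511 with no filter and 215 with DESeq2. The cause was not tested. In MutuDC, leaving out a sample gave 4 to 5 called genes in Vkine against EV, 2 to 3 in EV+LPS against EV, 5 in Vkine+LPS against Vkine, 3 to 4 in Vkine+LPS against EV+LPS and 3 in the interaction. Calls of Tnf and Lif held in every alternative run, as did the interactions of Tnf, Lif and Tnfrsf1a. Signs turned only for values near 0 that were not called: Lif in Vkine+LPS against EV+LPS ranged from -0.12 to 0.10 as single samples were left out, turning positive without EV+LPS sample 2 (0.10) or Vkine+LPS sample 2 (0.07), and the interaction of Tnfrsf1b was -0.036 with limma on log2(FPKM + 1) and -0.039 on log2(FPKM + 0.1). Il6 in Vkine against EV was 0.64 on log2(FPKM + 1), and its interaction was called on log2(FPKM + 0.1) alone (-0.98, adjusted p = 0.030). Of the values for single genes, 470 kept their direction and side of the threshold, 16 lost a call, 7 gained one and 4 turned sign.

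Same-numbered samples did not deviate together, with correlations of -0.101 to 0.096 over 15 pairs in MutuDC and -0.049 and 0.036 over 2 pairs in CD45 cells, and 4 of 11 MutuDC samples and 0 of 6 CD45 samples correlated best with their own number. In the CD45 set EV sample 3 (titled R1L1) and Vkine sample 3 had no partner by title, so neither could match. A replicate block changed no count of called members in MutuDC (5, 3, 5, 4 and 3 in the comparisons in the order above). In CD45 cells it left the count at 0 and moved the log2 fold change of Tnf to 0.74. There EV sample 3 and Vkine sample 3 each formed a block of their own, and 0 of 14006 tested genes were called. That fit therefore cannot show whether the count of 0 depends on the block. Depth limits Il10, Ifnb1 and Osm in MutuDC and leaves Il6 there with 5 to 54 counts per library.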
